A study of Mus musculus with 2 samples.

Results

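Mir203 and Mir205 are microRNA genes known for their expression in the epidermis, the outer epithelium of the skin. They were picked by gene symbol, as 2 of the 1973 microRNA genes counted in limb tissue of mouse embryos. The material came from the B6NCrl strain at embryonic day 14.5, male and female pooled, and the RNAs sequenced were under 30 nucleotides long. There was 1 group of 2 biological replicates, collected on different days. Each was labelled as the 4 limbs of 1 pup, although the sex label speaks of a pool, and both carried the same donor label. Own-strand microRNA counts summed to 4608816 in replicate 1 and 4144385 in replicate 2. No treatment, allele or second tissue entered the design. The question was therefore how abundant the 2 microRNAs were in this tissue, how they stood to each other, and how far the libraries differed.

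MicroRNAs are cut from hairpin precursors and guide the silencing of mRNAs, mainly through base pairing of the seed, bases 2 to 8 of the mature strand. In mouse skin, miR-203 is switched on as keratinocytes leave the basal layer and differentiate, and it represses Trp63, which encodes the transcription factor p63 of epithelial progenitors. miR-205 is abundant in the basal layer and its progenitors, where in mouse it represses inhibitors of PI3K signalling, among them Inppl1. At this age the limb epidermis is beginning to stratify. The epidermis was not isolated here, so the values are those of whole limb, and fewer cells of a type cannot be told apart from less RNA per cell.

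Mir203 (ENSMUSG00000065574.1) lies on the plus strand at chr12:112130880-112130955 of GRCm38, in no other annotated gene. The asparaginase gene Aspg ends 3321 bases upstream. Mir205 (ENSMUSG00000065533.1) lies on the minus strand at chr1:193507463-193507530, inside exon 2 of the noncoding RNA gene 4631405K08Rik, which RefSeq calls Mir205hg. The nearest other microRNA gene with at least 10 counts in total was Mir1247 at 1853 kb from Mir203 and Mir29c at 1530 kb from Mir205. The hairpins below, from RefSeq (GRCm38.p6), are shown because the deposited count of each gene pools all reads from its hairpin. Capitals mark the mature strand of each arm.
Mir203: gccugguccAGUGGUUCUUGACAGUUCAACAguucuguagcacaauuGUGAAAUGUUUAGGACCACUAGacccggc
Mir205: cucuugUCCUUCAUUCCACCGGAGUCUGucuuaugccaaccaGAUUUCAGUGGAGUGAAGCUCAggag

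The strands with the best-known function are miR-203-3p and miR-205-5p, from opposite arms of their hairpins. In the mature strands below, capitals mark the seed.
mmu-miR-203-3p: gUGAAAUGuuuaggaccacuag
mmu-miR-203-5p: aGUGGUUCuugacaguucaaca
mmu-miR-205-5p: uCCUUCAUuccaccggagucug
mmu-miR-205-3p: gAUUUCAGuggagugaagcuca
None of these 4 seeds was also the seed of any of the other 1737 mature mouse microRNAs of the RefSeq table. The 4 strands shared no stretch of over 5 bases across the 2 genes. Among 2201 other microRNA precursors of GENCODE M21, the longest stretch shared on either strand was 11 bases for Mir203 and 14 bases for Mir205. That annotation does not hold Gm51289, which RefSeq places on the strand opposite Mir203, inside its hairpin. How many reads came from each arm is not resolved by counts per gene.

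Both microRNAs were abundant, and Mir203 was the higher. Mir203 had 186255 counts in replicate 1 and 130810 counts in replicate 2. Scaled to the library sum of own-strand microRNA counts (CPM, counts scaled to a sum of 1000000), this was 40413 CPM in replicate 1 and 31563 CPM in replicate 2, a mean of 35988 ± 6258 CPM (SD, n = 2). Mir205 had 62160 counts or 13487 CPM in replicate 1, and 50928 counts or 12288 CPM in replicate 2. Its mean was 12888 ± 848 CPM (SD, n = 2). The libraries of Mir203 were both above those of Mir205, with no overlap, and replicate 1 was the higher one for each gene. Exact 95% Poisson intervals, which cover counting error only, ran from 40229 to 40597 CPM and from 31392 to 31735 CPM for Mir203. For Mir205 they ran from 13381 to 13594 CPM and from 12182 to 12396 CPM. For each gene the gap between the libraries was wider than this counting error.

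The 2 genes together took 5.39% of the own-strand counts in replicate 1 and 4.39% in replicate 2, or 4.89% ± 0.711 (SD, n = 2). Mir203 ranked 7 in replicate 1, 9 in replicate 2 and 8 by mean level, and Mir205 ranked 18 in both libraries. These ranks hold among reads with a single alignment: reads with several (31.8% and 32.6% of all reads) were left out, and genes with copies such as Mirlet7a-1 (146 CPM) and Mir26a-2 (59.2 CPM) can stand too low. Mir23b, at 42879 and 46457 CPM, lay above Mir203 in both libraries. Mirlet7g (39181 ± 376 CPM), Mir214 (31163 ± 3130 CPM) and Mirlet7i (31038 ± 1291 CPM) had values that overlapped the range of Mir203. Mir203 was above Mirlet7g and Mir214 in replicate 1 and below them in replicate 2, so its order with these was not resolved, while it was above Mirlet7i in each library taken alone. Mir17 and Mir99b, at 18952 ± 714 and 16252 ± 1314 CPM, lay above Mir205 in both libraries. Mir127 (12133 ± 1471 CPM) and Mir411 (11798 ± 1520 CPM) came next below and overlapped its range, although Mir205 was the higher in each library taken alone.

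**Figure D1:**
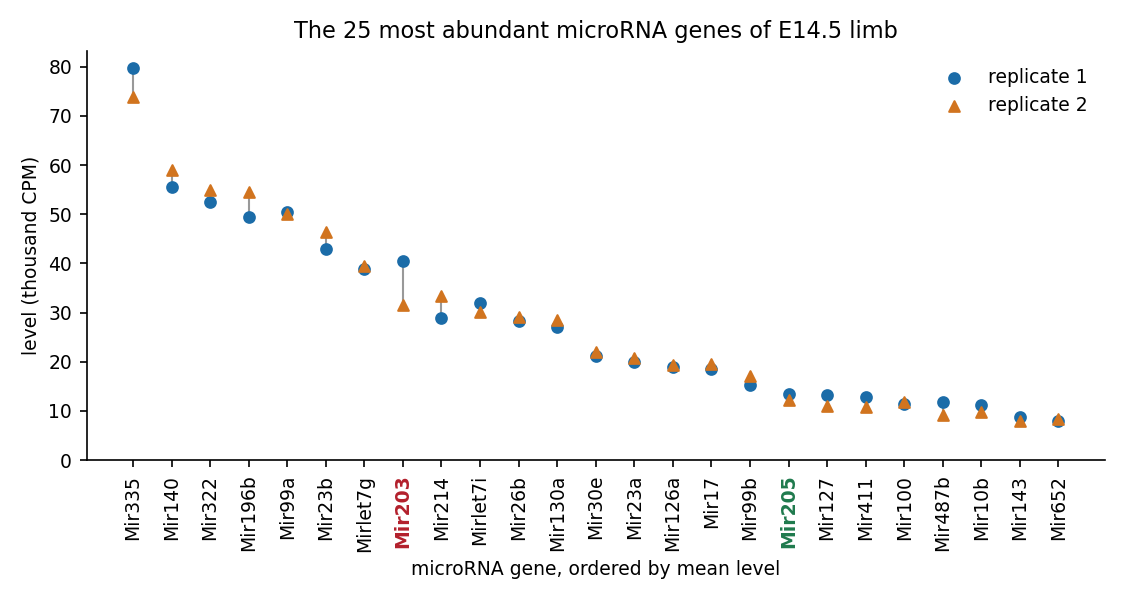
Level of the 25 most abundant microRNA genes, in units of 1000 CPM, with replicate 1 as circles, replicate 2 as triangles and a grey line joining them. Mir203 (red label) sits at rank 8 with a wide gap between its libraries, 40413 against 31563 CPM, and Mir205 (green label) at rank 18 with 13487 against 12288 CPM.

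The comparison of the differentiating-layer microRNA with the basal-layer microRNA was made inside each library, where it needs no scaling. Mir203 had 2.996 times the counts of Mir205 in replicate 1, with an exact (Clopper-Pearson) 95% interval of 2.97 to 3.02. In replicate 2 the ratio was 2.57, with an interval of 2.54 to 2.595. The mean ratio was 2.78 ± 0.303 (SD, n = 2), and it lay above 1 in both libraries. The ratio was 1.17 times higher in replicate 1 than in replicate 2, with a 95% interval of 1.15 to 1.18 from counting error. Fisher's exact test of the 4 counts gave a two-sided p = 1.2e-107 for this difference. That p sets the reads of 2 libraries against counting noise and does not compare conditions. The ratio is one of reads: how evenly the 2 microRNAs enter a small RNA library was not measured, so it is not a ratio of molecules or of cells of each layer.

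Against the Mir200 family, whose members keep epithelial cells epithelial by repressing Zeb1 and Zeb2, both microRNAs were again high. Mir203 had 3.85 times the summed counts of the 5 family genes in replicate 1 and 3.13 times in replicate 2. Mir205 had 1.28 times that sum in replicate 1 and 1.22 times in replicate 2. The ratio of Mir205 to the family was thus close between the libraries (1.252 ± 0.0458, SD, n = 2), while that of Mir203 varied more (3.49 ± 0.506).

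**Figure D2:**
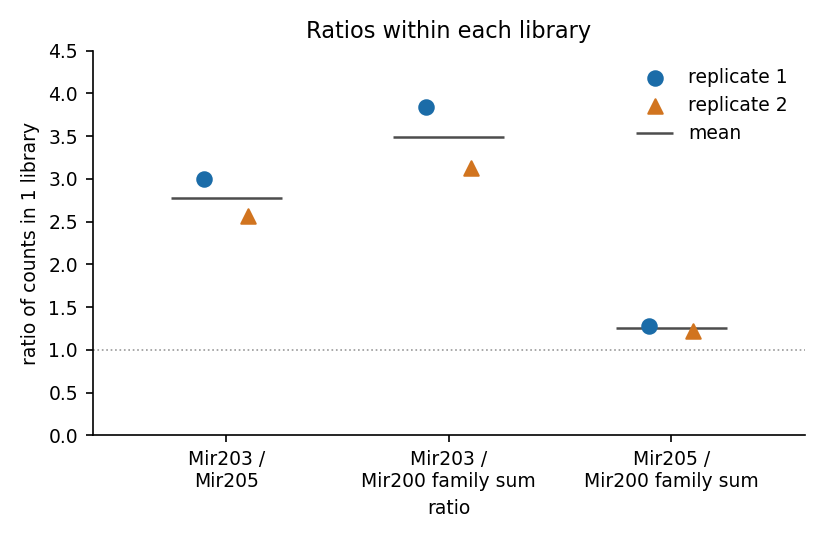
Ratios of counts within each library, replicate 1 as circles, replicate 2 as triangles and the mean as a bar; the dotted line marks equal counts. Mir203 over Mir205 was 2.996 and 2.57, Mir203 over the Mir200 family sum 3.85 and 3.13, and Mir205 over the same sum 1.28 and 1.22.

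The surface epithelium list, which holds Mir203, Mir205 and the Mir200 family, had 7 genes, all with reads. Mir203 made up 60.6% ± 2.99 of its sum and Mir205 21.9% ± 1.30 (SD, n = 2), together 83.7% in replicate 1 and 81.3% in replicate 2. Among the other members, Mir429 reached 5062 ± 35.4 CPM, Mir200c 2500 ± 113 CPM and Mir200b 1934 ± 97.4 CPM. Mir141 (455 ± 34.7 CPM) and Mir200a (341 ± 20.1 CPM) were lowest. Each step in this order held in both libraries, with no overlap of ranges.

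**Figure D3:**
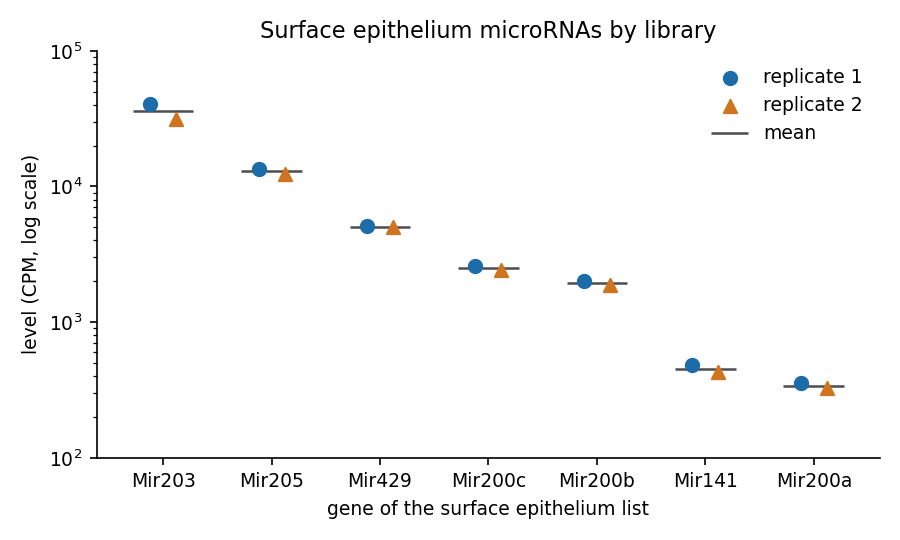
Level of the 7 genes of the surface epithelium list in CPM on a log axis, replicate 1 as circles, replicate 2 as triangles and the mean as a bar. The levels span from 35988 CPM for Mir203 to 341 CPM for Mir200a, and replicate 1 is the higher library for every gene.

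Other microRNAs described in keratinocytes had far lower counts here or are not restricted to skin. Of 9 such genes, 8 were counted here and all 8 had at least 10 counts in both libraries, with a sum of 11219 ± 106 CPM (SD, n = 2). Mir203 alone had 3.21 times that sum, and most of it came from Mir21a, a microRNA of many tissues, at 7520 ± 229 CPM. Mir34a, a target of p53, had 362 ± 19.2 CPM, and Mir31, studied in the hair follicle, 352 ± 10.1 CPM. Mir210, which responds to low oxygen, had 796 ± 41.5 CPM. Mir184, a microRNA of cornea and epidermis, was close to absent with 22 counts in replicate 1 and 18 counts in replicate 2. Mir125b-1 (1234 ± 118 CPM), Mir125b-2 (689 ± 11.6 CPM) and Mir24-2 (261 ± 4.39 CPM) each share a mature strand with another gene, so their counts are lower limits. The list sum is therefore a lower limit too, the 3.21 is an upper limit, and the part of Mir21a in the sum can stand too high. Mir24-1 was not analysed here.

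The 2 libraries were compared next, as replicate 1 over replicate 2. Mir203 was 1.28-fold higher in replicate 1 (log2 ratio 0.36), with a 95% interval of 1.27 to 1.29 from counting error. Mir205 was 1.10-fold higher (log2 ratio 0.13), with an interval of 1.08 to 1.11. An exact binomial test over 407 genes, with Benjamini-Hochberg adjustment, called both genes. The adjusted p was 2.1e-53 for Mir205 and too small to be represented for Mir203. At this depth the call carries little: 35.6% of the 407 genes were called in either direction, 15.7% as higher in replicate 1, and 100% of the 23 genes that averaged 10000 CPM or more. At least a 2-fold difference was called for 0.983% of the genes, and neither member was among them. The share of calls that were higher in replicate 1 depended on the scaling: 64 of 145 calls (44.1%) with library sums, 86 of 131 (65.6%) with TMM and 96 of 138 (69.6%) with DESeq2 size factors. Mir203 and Mir205 were among the higher ones each time. The collection day and the library cannot be told apart, and both samples carry the same donor label. The source of the spread between the libraries was not tested.

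The size of the difference sets Mir203 apart from most genes of its level, and Mir205 less so. Among the 98 genes that averaged 1000 CPM or more, Mir203 had the third largest log2 ratio by size, behind Mir206 (0.45) and Mir433 (0.38). It had the largest of the 23 genes at 10000 CPM or more. Mir205 stood at place 35 of the 98 genes. The coefficient of variation was 17.4% for Mir203 and 6.58% for Mir205, against a median of 4.75% over the 98 genes. Their median log2 ratio was -0.03, and 89 of them lay within 0.25 of 0.

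**Figure D4:**
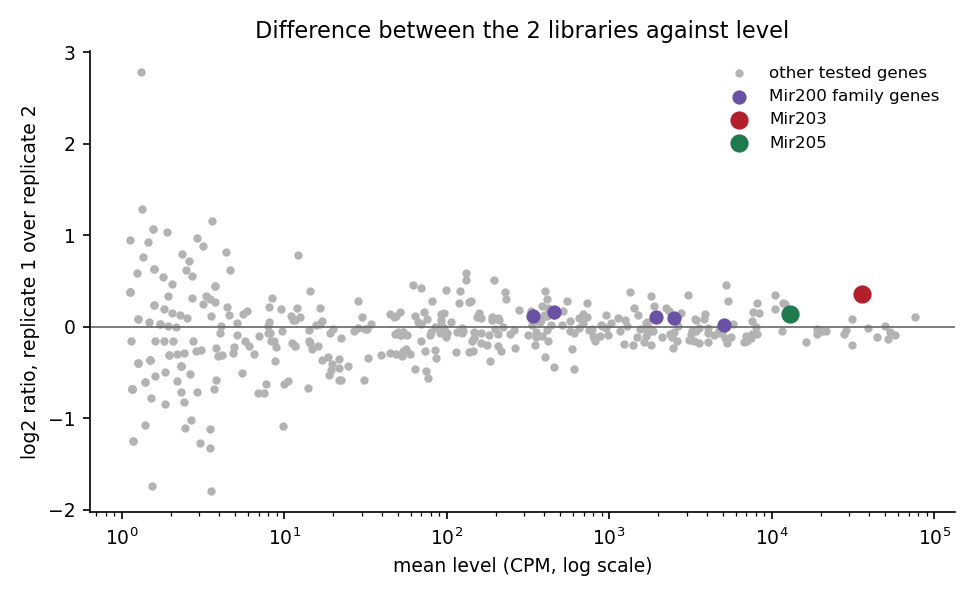
Log2 ratio of replicate 1 over replicate 2 against the mean level in CPM (log axis) for the 407 genes tested. Mir203 (red) lies at 0.36, above all other genes with at least 10000 CPM, Mir205 (green) at 0.13, and the 5 Mir200 family genes (purple) between 0.01 and 0.16.

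All 7 surface epithelium genes had the higher value in replicate 1, and 5 of them passed the test. The list includes Mir203 and Mir205 themselves and was chosen with earlier results of these data known, so this count is no independent evidence. Over all 407 genes tested, 175 had the higher value in replicate 1 and 15.7% passed as higher. Passing depends on depth, and the 407 include genes of few counts, so these shares are not matched for level. Of the 98 genes that averaged 1000 CPM or more, 41 had the higher value in replicate 1. The 5 epithelium genes that passed were Mir203, Mir205, Mir141 (log2 ratio 0.16), Mir200b (0.10) and Mir200c (0.09), while Mir200a (0.12) and Mir429 (0.01) did not pass. The median log2 ratio of the list was 0.12, against -0.04 over all genes tested. With the counts scaled to the Mir200 family sum in place of the library sum, the log2 ratio was 0.30 for Mir203 and 0.07 for Mir205. Of the 8 keratinocyte genes, Mir21a passed as higher in replicate 1 (0.06) and Mir210 (-0.11) and Mir125b-1 (-0.19) as lower, with a list median of 0.05. The calls of this list depended on the scaling, with 1 higher and 2 lower by library sums, 3 higher and 1 lower with TMM, and 4 higher and 1 lower with DESeq2. Mir210 no longer passed with TMM (-0.04) or DESeq2 (-0.03), while Mir34a and Mir125b-2 passed as higher with either, and Mir31 with DESeq2.

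Markers of other cell types also moved between the libraries. The 5 skeletal muscle genes counted, of 6 listed, included 2 with enough counts to test, and both were higher in replicate 1 (Mir206 0.45, Mir133b 0.51). Replicate 1 held 6197 CPM of the muscle list, against 4522 CPM in replicate 2. The 3 erythroid genes summed to 547 CPM in replicate 1 and 417 CPM in replicate 2. Mir451a (0.39) and Mir144 (0.43) were called higher, while Mir486 (0.0095) was not called. The 2 cartilage genes summed to 59560 CPM in replicate 1 and 63162 CPM in replicate 2. Mir140 was called lower in replicate 1 under each scaling (-0.09, or -0.02 with TMM and -0.01 with DESeq2), while Mir455 (-0.06) was not called with TMM (-0.0024) and had the other sign with DESeq2 (0.0074). The 3 leukocyte genes counted summed to 598 and 655 CPM. Of these only Mir155 (-0.23) was called, as lower in replicate 1 under each scaling. Mir150 (0.11) and Mir223 (-0.06) were not called, and Mir223 had the other sign with DESeq2 (0.0082). The endothelial Mir126a had 18963 and 19268 CPM, a direction (-0.02) that turned round with TMM (0.04) and DESeq2 (0.05). The Hox-cluster genes of limb patterning, all 6 with reads, summed to 65414 and 68182 CPM. Mir196b (-0.14) was called lower in replicate 1, whereas Mir10a (0.34), Mir10b (0.19) and Mir196a-2 (0.13) were called higher, and the list median was 0.09. The liver microRNA Mir122 had 6.29 and 13.5 CPM, from only 29 and 56 counts. It was called lower in replicate 1 under each scaling (-1.09, or -1.03 with TMM and -1.02 with DESeq2). Of the 5 brain genes counted, 4 had no count and Mir9-3 had 2 counts in replicate 1 alone. These brain genes, Mir196a-1 and Mir196a-2 of the Hox list, and Mir1a-1, Mir133a-1 and Mir133a-2 of the muscle list share mature strands with copies. Their counts, and the list sums that hold them, can therefore be lower limits. The part of these other cell types in the difference of Mir203 was not tested.

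By the pattern over the 2 libraries, the genes with at least 1000 CPM most like Mir203 were Mir10a, Mir487b and Mir434, whose log2 ratios of 0.34 each lay within 0.02 of its own. Those most like Mir205 were Mir369, Mir542 and Mir532, with log2 ratios of 0.13, 0.13 and 0.15. With 2 libraries, likeness is a single difference and carries no more than that.

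No mRNA was measured in these libraries, so targets are given only as sequence. Published targets were searched in the 3′ untranslated regions of GENCODE M21 for the reverse complement of the seed, on the mRNA strand. For miR-203-3p this is CATTTCA, or the 8-letter CATTTCAA with an A opposite the first base, which contains it. The 8-letter form occurred in 3 of 6 listed targets (Snai2, Skp2 and Abl1), and in 5.47% of 21020 protein-coding genes with such a region. The 7-letter form, searched after that result was seen, occurred in all 6 (also Trp63, Msi2 and Socs3), and in 16.9% of genes. Since the targets were listed because they are published, this is no independent evidence. Sites in 3 of them are shown with the match in capitals, for the p63 gene Trp63 (chr16:25866790-25866796 and chr16:25891545-25891551, plus strand), the transcription factor gene Snai2 (chr16:14708706-14708713, plus strand) and the cell-cycle gene Skp2 (chr15:9113142-9113149, minus strand). All annotated transcripts of a gene were searched together, so the first and second Trp63 sites need not lie in the same mRNA.
Trp63 first site: tttgtaatggggCATTTCAtgaaac
Trp63 second site: gggactctgtggCATTTCAgcacta
Snai2: ctgctgccaaacCATTTCAAccaaag
Skp2: ctgggattaacaCATTTCAActctgt

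For miR-205-5p the searched letters were ATGAAGG and ATGAAGGA. Each form occurred in the same 3 of 6 listed targets (Zeb1, Inppl1 and Frk), against 11.7% of genes for the shorter form and 4.41% for the longer one. Zeb2, Inpp4b and Phlda3 held neither form in these annotated ends. The sites in Inppl1, which encodes the lipid phosphatase SHIP2 (chr7:101822902-101822909, minus strand), and in the kinase gene Frk (chr10:34608998-34609005, plus strand) read as follows.
Inppl1: atccgtccggaaATGAAGGAagagcc
Frk: caggctgttattATGAAGGAatttga
A match is a description of letters and does not show that the site was bound in limb.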

How the data were processed

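The deposited values were raw read counts per microRNA gene, with 3 count columns and no header; per the deposited read-me texts, the genome was mm10 and the gene models were GENCODE M4. Sources used here name no aligner or counter. Own-strand counts (the second count column, judged from the values) were used; they summed to 4608816 in replicate 1 and 4144385 in replicate 2, of 9001596 and 8387546 reads. Tally rows were left out: unmapped reads (12.8% and 13.7%), reads with several alignments (31.8% and 32.6%) and reads on no gene (4.19% and 4.31%).

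Counts were scaled to CPM by these sums. Symbols, positions and 3′ ends came from GENCODE M21 (1894 of 1973 identifiers matched), an annotation of the same build. Replicate 1 was set against replicate 2 by a two-sided exact binomial test of genes with at least 10 counts in total, Benjamini-Hochberg adjusted and called under 0.05; 0.5 was added to each count before log2 ratios. With 1 library a side, edgeR's quasi-likelihood model could not be fitted. The test was checked on simulated counts that held counting noise alone, drawn with the library sums given to the test. Such a check cannot speak to the wider spread between the real libraries. A chi-square of 53.7 per degree of freedom showed that the libraries were not copies.

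Alternatives were TMM (edgeR 4.0.16, R 4.3.3), DESeq2 1.42.0 size factors, other totals, count filters, strands, a GC trend and single replicates. The named genes were the members, the epithelium and keratinocyte lists, rank neighbours, seed relatives and the 3 genes most alike in log2 ratio. Genes of the marker lists, the published targets, the nearest genes and those behind a stated rank were named besides. Members and lists were chosen with earlier results of these data known. The 7-letter search was added after the 8-letter one was seen. Software was scipy 1.17.1, pandas 2.3.3, numpy 2.4.6 and matplotlib 3.10.9 under Python 3.11.15. No molecular identifiers were recorded, so intervals cover counting error only.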

Additional observations from a re-analysis of the deposited data

Results flagged for a closer look

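Reads on the strand opposite Mir203, outside the own-strand measurement, exceeded 3 counts, the limit set by a count of 0. There were 37 in replicate 1 and 50 in replicate 2, with exact 95% Poisson intervals of 26.1 to 50.9996 and 37.1 to 65.9. This was 0.0199% and 0.0382% of the own-strand counts of Mir203. They were more numerous in the library where Mir203 itself was lower, 8.03 against 12.1 CPM, and the intervals overlap. Mir205 had 0 opposite-strand reads in either library, which allows up to 0.00483% and 0.00589% of its own-strand counts. Over all genes counted, opposite-strand counts summed to 155134 in replicate 1 and 129462 in replicate 2. Of 152 genes with at least 1000 own-strand counts in both libraries, which do not stand for all genes, 133 had no opposite-strand read at all. Only Mir203, Mir126a (17 and 8), Mir708 (15 and 17) and Mir337 (14 and 8) had over 3 in both.

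RefSeq places a microRNA gene, Gm51289, whose products are named miR-203b, at chr12:112130887-112130946 on the minus strand, inside the Mir203 hairpin. Each of its mature strands is a perfect complement of the facing Mir203 strand over 20 bases. Both are shown with their seeds in capitals, as the letters that opposite-strand reads of that hairpin would carry. Whether the 37 and 50 reads are these strands was not tested, since the tables hold no read sequences.
mmu-miR-203b-5p: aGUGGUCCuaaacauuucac
mmu-miR-203b-3p: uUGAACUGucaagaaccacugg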

How the results depend on the processing

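The levels depended on the total. With reads of several alignments in the total, Mir203 averaged 21966 CPM and Mir205 7859 CPM, and with all reads in the total 18144 and 6489 CPM, by construction of the larger totals. The log2 ratio between the libraries ran from 0.30 (scaled to the Mir200 family) to 0.43 (DESeq2 size factors) for Mir203, and from 0.07 to 0.21 for Mir205, called in every setting. All 7 epithelium genes passed as higher in replicate 1 with TMM or DESeq2 scaling, against 5 with library sums. Over all genes tested, 21.1% passed as higher with TMM and 23.6% with DESeq2, against 15.7% with library sums. These shares include genes of few counts and are not matched for level. The Mir203 targets with a match numbered 6 with the 7-letter search, against 3 with the 8-letter one. No paired analysis was possible because there was 1 group. Single replicates gave ratios of Mir203 to Mir205 of 2.996 (replicate 1) and 2.57 (replicate 2). With 2 replicates each lies within 1 SD of their mean by construction, and a count filter cannot move the log2 ratio of a gene, so neither setting speaks to stability. Depth limits genes near 3 counts (0.651 CPM in replicate 1, 0.724 CPM in replicate 2), not these 2.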
